A study of Mus musculus with 60 samples.

Results

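Red blood cell genes were followed in RNA of whole fetal mouse brains, where circulating blood is collected with the tissue. The 7 genes chosen by name were the embryonic globins Hbb-y, Hbb-bh1 and Hba-x, the heme and membrane genes Alas2, Slc4a1 and Ahsp, and the receptor Epor. Each gene was taken from the array row, or transcript cluster, whose only gene symbol is its own, and 6 of the 7 genes had 1 such row each among 21789 transcript clusters with a single symbol. Ahsp was not analysed here. The arrays are Affymetrix Mouse Gene 1.0 ST arrays, which read each transcript cluster by several probes, and values are log2 signals.

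Pregnant B6.129 mice were given chlorpyrifos oxon (CPO), the active metabolite of the insecticide chlorpyrifos, on each of 12 days, gestational days 6 to 17, and fetal brains were taken on day 18. RNA of all brains of a litter's sampled fetuses was pooled, so that 1 array stands for 1 dam, and 5 dams were drawn at random for each group after dams with outlying brain acetylcholinesterase had been set aside. The 60 arrays fall into 12 groups. PON1-knockout (KO) dams received 0, 0.50 or 0.75 mg/kg/d. Dams carrying a human PON1 transgene of the Q form (tgHuPON1Q192, Q-tg), dams carrying that of the R form (tgHuPON1R192, R-tg) and wild-type (WT) dams received 0, 0.75 or 0.85 mg/kg/d. PON1 is the serum esterase paraoxonase 1, which hydrolyses CPO. The promoter of the transgene is not given in the sources used here, and litters are pooled, so no value belongs to a single fetus. The Pon1 signal went against the genotype label in 10 arrays, 5 labelled KO and 5 with other labels. Groups are named by their labels throughout, and results without these 10 arrays are given where they differ.

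In the mouse embryo a first wave of red cells arises in the yolk sac and carries embryonic globins, the beta-like Hbb-y and Hbb-bh1 and the alpha-like Hba-x. A later wave from the fetal liver replaces it and carries adult alpha and beta globin. Alas2 is the first enzyme of heme synthesis in red cell precursors, Slc4a1 is the band 3 anion exchanger of the red cell membrane, and Epor is the receptor for erythropoietin, which neural cells can also express. Young red cells that have lost their nucleus still hold globin and heme-pathway RNA. The GATA1 and KLF1 proteins are the best-known activators of these genes.

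Promoters from RefSeq were matched for 4 of the 6 measured genes, and those of the adult globins Hbb-bs and Hba-a1 are set beside them because Alas2 varied with the adult globins over the arrays. Each line gives the 250 bases before the gene's start, 5′ to 3′ along the gene. Capitals mark the GATA words AGATAA or TGATAA and the KLF word CCNCNCCC, on either strand, where matches of the KLF word may overlap one another.
Alas2, GRCm38.p6 chrX:150547167-150547416, plus strand: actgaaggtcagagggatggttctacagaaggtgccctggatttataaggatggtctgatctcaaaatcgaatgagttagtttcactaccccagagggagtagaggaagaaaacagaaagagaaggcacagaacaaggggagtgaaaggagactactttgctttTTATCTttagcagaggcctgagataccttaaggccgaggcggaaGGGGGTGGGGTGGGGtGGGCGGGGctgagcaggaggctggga
Hba-x, GRCm38.p6 chr11:32276350-32276599, plus strand: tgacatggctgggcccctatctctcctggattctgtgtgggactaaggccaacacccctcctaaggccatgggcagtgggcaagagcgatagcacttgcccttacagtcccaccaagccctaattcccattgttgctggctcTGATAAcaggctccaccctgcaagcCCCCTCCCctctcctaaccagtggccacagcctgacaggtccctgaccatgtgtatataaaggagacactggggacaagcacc
Hbb-y, GRCm38.p6 chr7:103853208-103853457, minus strand: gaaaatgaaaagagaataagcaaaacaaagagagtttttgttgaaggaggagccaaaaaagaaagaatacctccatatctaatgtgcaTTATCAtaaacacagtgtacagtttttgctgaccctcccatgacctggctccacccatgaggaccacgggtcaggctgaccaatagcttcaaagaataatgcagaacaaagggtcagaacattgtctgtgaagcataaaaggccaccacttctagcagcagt
Epor, GRCm38.p6 chr9:21963577-21963826, minus strand: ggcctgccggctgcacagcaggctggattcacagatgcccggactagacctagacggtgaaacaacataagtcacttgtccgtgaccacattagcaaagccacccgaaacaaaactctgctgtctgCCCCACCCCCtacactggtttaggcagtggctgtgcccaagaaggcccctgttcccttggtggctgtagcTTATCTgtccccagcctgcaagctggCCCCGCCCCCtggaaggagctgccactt
Hba-a1, GRCm38.p6 chr11:32283422-32283671, plus strand: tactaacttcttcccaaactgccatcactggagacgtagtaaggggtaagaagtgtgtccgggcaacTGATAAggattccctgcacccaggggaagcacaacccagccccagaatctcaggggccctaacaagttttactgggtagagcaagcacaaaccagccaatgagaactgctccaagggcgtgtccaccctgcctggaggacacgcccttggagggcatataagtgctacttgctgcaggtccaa
Hbb-bs, GRCm38.p6 chr7:103827929-103828178, minus strand: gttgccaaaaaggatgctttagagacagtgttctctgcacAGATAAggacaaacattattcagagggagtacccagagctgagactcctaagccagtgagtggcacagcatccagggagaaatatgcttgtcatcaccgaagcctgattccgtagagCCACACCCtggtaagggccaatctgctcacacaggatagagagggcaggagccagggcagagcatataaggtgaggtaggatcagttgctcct

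All 6 promoters held 1 GATA word, which 16.6% of 32851 promoters of this length hold. The KLF word, found in 45.9% of promoters, had 4 matches in Alas2 and 4 in Epor, 1 in Hba-x, 1 in Hbb-bs and none in Hbb-y or Hba-a1. Both words occur together in 4.52% of all promoters. A match is a run of letters in this window and was not tested as a binding site.

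Labelled tissue and background were checked first. All 10 neuron and progenitor markers examined, among them Tubb3, Dcx and Tbr1, were above a dim level of 6.54, the 95th percentile of the mean signals of 1035 olfactory receptor transcript clusters. In all, 15611 of the 21789 transcript clusters (71.6%) were above it. Array medians lay between 7.66 and 7.81. The lower quartile, the log2 signal below which the dimmest 25% of an array's transcript clusters lie, ran between 6.19 and 6.52. Correlations between pairs of arrays were 0.986 to 0.998.

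The 2 beta-like embryonic globins were under the dim level, and the alpha-like one lay just over it. Hbb-bh1 (transcript cluster 10566268, chromosome 7) averaged 4.45 ± 0.17 (SD, n = 60) and was above the dim level on 0 arrays. Hbb-y (10566272, chromosome 7) averaged 6.25 ± 0.17 and exceeded it on 2 arrays. Hba-x (10375046, chromosome 11), the alpha-like partner, averaged 6.96 ± 0.14 and was above it on all 60. The adult globins, by contrast, were read by 4 transcript clusters, each assigned to several near-identical genes, so that no single adult gene can be named. The pair assigned to Hba-a1 and Hba-a2 averaged 11.97 ± 0.14 and 11.90 ± 0.14. The pair assigned to Hbb-bt, Hbb-bs, Hbb-b1 and Hbb-b2 averaged 12.64 ± 0.14 and 12.63 ± 0.13. Signals of different probes are not on one scale, so these levels place each gene against background and not against one another.

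Alas2 (10602372, chromosome X) averaged 7.90 ± 0.18 and ran between 7.54 and 8.30, a 1.70-fold span, and Slc4a1 (10391649, chromosome 11) averaged 7.28 ± 0.15, between 7.0045 and 7.56. Epor (10591660, chromosome 9) averaged 6.83 ± 0.17 and was above the dim level on 57 arrays. The SD of Alas2 exceeded that of 92.6% of transcript clusters. The share was 91.0% for Hbb-y, 89.9% for Epor, 89.6% for Hbb-bh1, 80.1% for Slc4a1 and 72.7% for Hba-x. The spread within groups was of the same size as the whole spread, 0.17 for Alas2 and 0.13 for Hba-x. In bulk RNA, fewer cells of a type and less RNA per cell cannot be told apart.

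Over the 60 arrays, Alas2 varied with the adult globin clusters. Pearson's r of Alas2 was 0.84 and 0.85 with the adult alpha clusters and 0.86 and 0.86 with the adult beta clusters, and Spearman's rho was 0.82 to 0.85. The 2-sided permutation p, adjusted over 24 such relations, was 6e-05 for each of the 4, where 1e-05 before adjustment is the smallest value 100000 resamples can give. Without the 2 arrays farthest from the median of the adult cluster, r was 0.82 to 0.84, and leaving out any single array gave 0.83 to 0.88. The 2 adult alpha clusters had an r of 0.995 with each other and the 2 adult beta clusters 0.993. Relations of a gene with both clusters of a pair are therefore near repeats and not separate results.

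**Figure D1:**
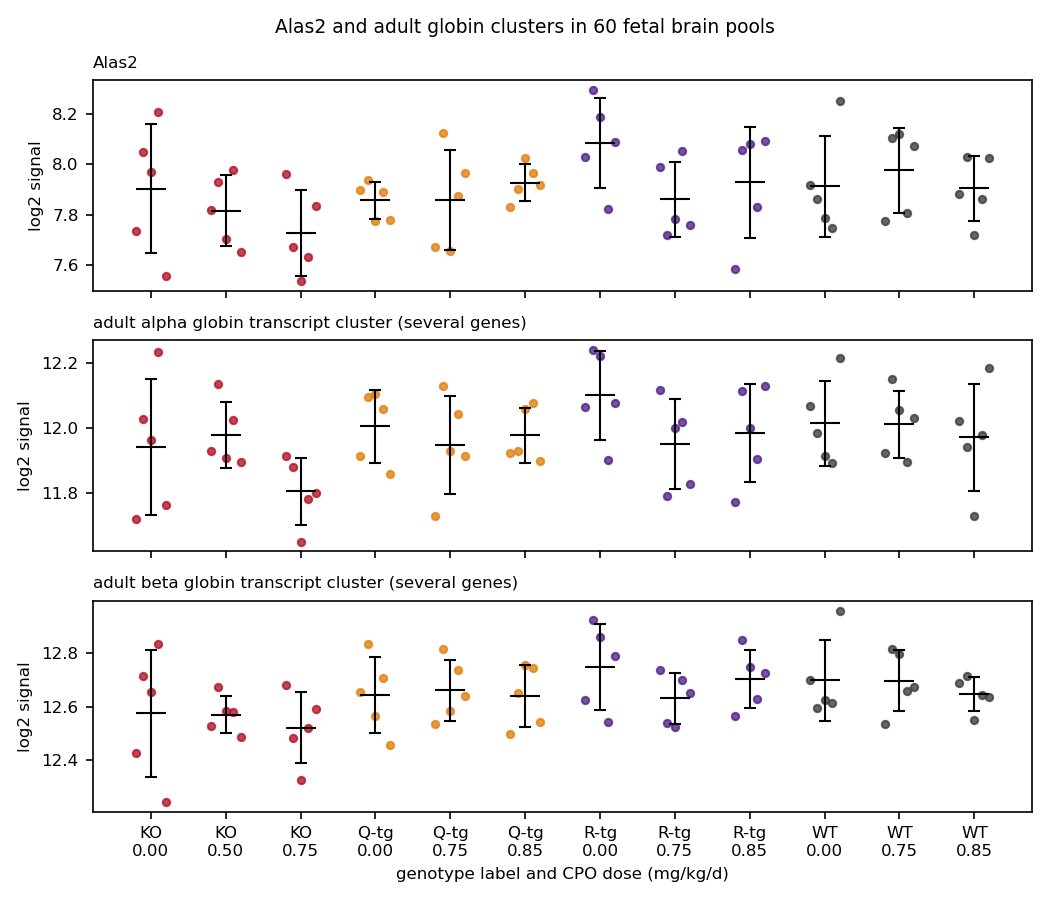
Log2 signal of Alas2 and of the first adult alpha and beta globin transcript clusters on each array (points), by genotype label and CPO dose, with group mean and SD (bars, n = 5). In the 3 panels the highest group is R-tg at dose 0 and the lowest is KO at 0.75 mg/kg/d.

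The relation was positive within each genotype and within each dose with 15 or more arrays, given here without a test. Within 15 KO arrays, r of Alas2 with the 4 adult clusters was 0.85 to 0.91. It was 0.59 to 0.71 in 15 Q-tg arrays, 0.87 to 0.93 in 15 R-tg arrays and 0.83 to 0.87 in 15 WT arrays. Within the 20 arrays at dose 0 it was 0.87 to 0.91, within 20 at 0.75 mg/kg/d 0.84 to 0.90, and within 15 at 0.85 mg/kg/d 0.73 to 0.85. The values were 0.84 to 0.87 on deviations from the group means and 0.87 to 0.89 without the 10 arrays whose Pon1 goes against the label. No test compared genotypes for the size of r.

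Values on single arrays are given for the groups with the highest mean and the widest range of Alas2. In R-tg dams at dose 0, Alas2 was 8.03, 8.30, 8.19, 7.82 and 8.09, and the first adult alpha cluster was 12.06, 12.24, 12.22, 11.90 and 12.08 on the same arrays in the same order. In KO dams at dose 0, Alas2 was 7.73, 8.05, 7.97, 8.21 and 7.56, and the alpha cluster 11.72, 12.03, 11.96, 12.23 and 11.76. In both groups the array with the most Alas2 signal also had the most adult alpha signal, as in 6 of the 12 groups in all. In the other 6 groups different arrays were highest for Alas2 and for the alpha cluster.

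Of the other members, Slc4a1 came nearest to the adult globins. Its r with the second adult beta cluster was 0.35 (rho 0.36; permutation test, adjusted p = 0.0327), the only one of 20 relations of these 5 genes with adult clusters to pass by Pearson's r. By Spearman's rho 5 of the 20 passed, 2 of Slc4a1 with the adult beta clusters and 3 of Hba-x. With the other 3 adult clusters r of Slc4a1 was 0.23 to 0.31. Its r with the 4 clusters differed between doses, given here without a test. It was 0.58 to 0.63 within 20 arrays at dose 0, -0.25 to -0.175 within 20 at 0.75 mg/kg/d and 0.30 to 0.46 within 15 at 0.85 mg/kg/d. By genotype it was 0.06 to 0.22 in KO, -0.09 to 0.13 in Q-tg, 0.30 to 0.57 in R-tg and 0.27 to 0.45 in WT arrays. Hba-x, whose product pairs with embryonic beta-like chains, had r of 0.20 to 0.27, with adjusted p of 0.125 to 0.24 by the same permutation test. Its rho was 0.31 and 0.26 with the alpha clusters and 0.31 and 0.35 with the beta clusters, with adjusted permutation p of 0.0454, 0.093, 0.0454 and 0.0241. For Hbb-y r was 0.09 to 0.16, for Hbb-bh1 -0.03 to 0.04 and for Epor -0.06 to -0.02.

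**Figure D2:**
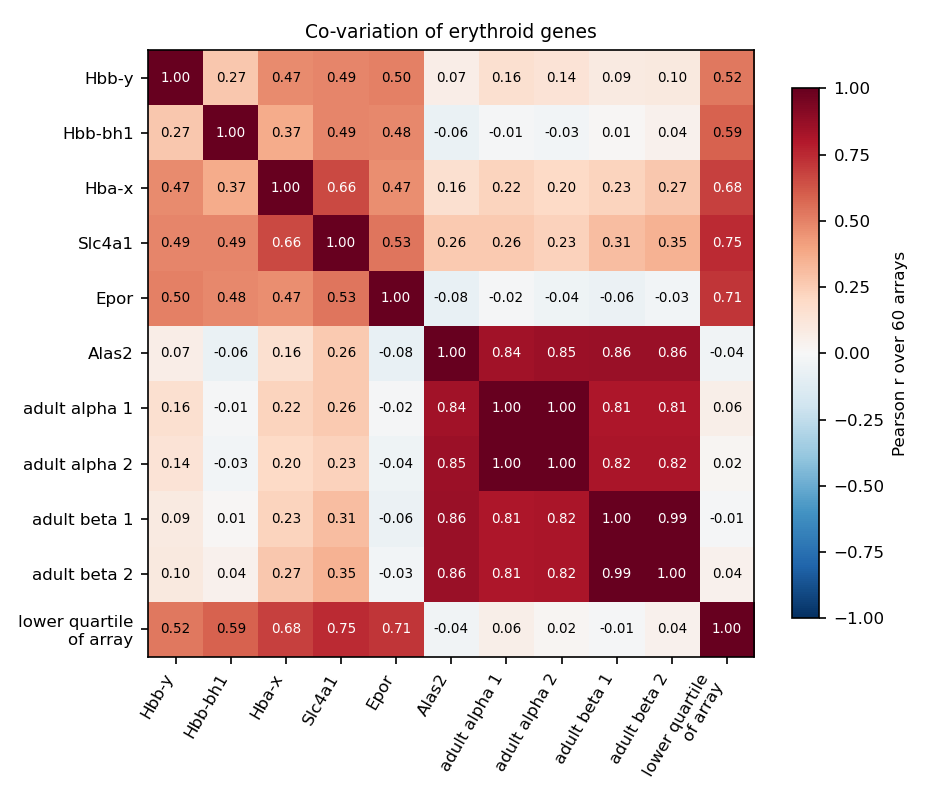
Pearson's r over 60 arrays between the 6 genes, the 4 adult globin transcript clusters and the lower quartile of the array (colour and printed value). Alas2 and the adult clusters form a block with r of 0.81 or more, and the other 5 genes vary with the lower quartile, with r of 0.52 to 0.75.

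The embryonic globins, Slc4a1 and Epor varied with one another instead. Of 15 pairs of members, 9 had a positive r past the threshold of 0.05 on the permutation p adjusted over the 15 pairs, and all 9 lay among these 5 genes. Of all 19938 genes, 16.1% had an r over 0.5 with Slc4a1, 13.9% with Epor, 11.4% with Hba-x, 6.72% with Hbb-bh1 and 3.17% with Hbb-y. The highest was Hba-x with Slc4a1 (r = 0.66, rho = 0.59, permutation test, adjusted p = 7.5e-05), followed by Slc4a1 with Epor (r = 0.53, rho = 0.53, adjusted p = 0.00015 by the same permutation test). Between the 2 beta-like embryonic globins, Hbb-y and Hbb-bh1, r was 0.27 with an adjusted permutation p of 0.0534, and rho 0.29 with 0.0409, which made 10 pairs by Spearman's rho. None of the 5 pairs with Alas2 passed, the nearest being Slc4a1 with r of 0.26 and an adjusted permutation p of 0.0617.

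These 5 genes also varied with the lower quartile of the array, with which 27.7% of all genes had an r over 0.5. Its r was 0.75 with Slc4a1, 0.71 with Epor, 0.68 with Hba-x, 0.59 with Hbb-bh1 and 0.52 with Hbb-y, with adjusted permutation p of 0.00013 for the first 4 and 0.000446 for Hbb-y. Spearman's rho was 0.73, 0.72, 0.54, 0.52 and 0.47 in the same order, and r without the 2 farthest arrays was 0.49 to 0.71. For Alas2 the r was -0.04 (rho -0.03, adjusted permutation p = 0.868). The same division appeared against the mean of the olfactory receptor clusters, with r of 0.49 to 0.71 for the 5 genes and -0.0026 for Alas2.

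With the lower quartile regressed out of each gene, 1 of the 15 pairs passed in place of 9, and it was Slc4a1 with Alas2 (r = 0.43, rho = 0.39, permutation test, adjusted p = 0.00795). In the same residuals, r of Slc4a1 with the adult clusters was 0.32 to 0.48 and that of Alas2 0.85 to 0.87. Hba-x with Slc4a1 had a residual r of 0.31 (rho 0.23, adjusted permutation p = 0.123). With the olfactory receptor mean regressed out, 2 pairs passed, Hba-x with Slc4a1 (r = 0.40, adjusted permutation p = 0.0249) and Slc4a1 with Alas2 (r = 0.37, adjusted permutation p = 0.0262), and by Spearman's rho 0 pairs passed. What moves the lower quartile was not tested.

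**Figure D3:**
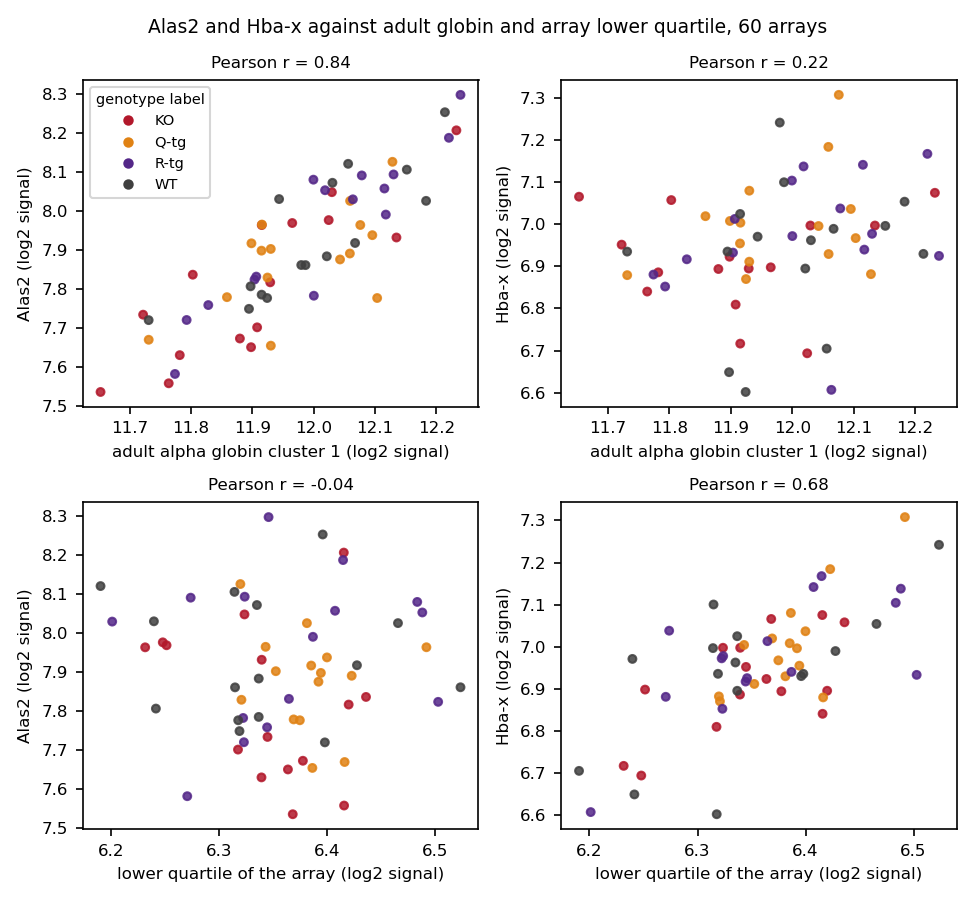
Alas2 (left) and Hba-x (right) against the first adult alpha globin cluster (top) and against the lower quartile of the array (bottom), log2 signals of 60 arrays coloured by genotype label. Alas2 follows the adult cluster (r = 0.84) and Hba-x the lower quartile (r = 0.68).

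Markers of other tissues were set beside the members in 66 relations, of which 14 passed by Pearson's r, with p adjusted over 78 relations that include array measures. S100a8, a neutrophil gene, passed with all 5 of the genes other than Alas2 (r of 0.34 to 0.56, rho of 0.30 to 0.56), and with 2 of the 5 by Spearman's rho. It was under the dim level at 5.23 and its r with the lower quartile was 0.72. Alas2 passed with Col1a1, a collagen of connective tissue (r = 0.33, rho = 0.42, adjusted permutation p = 0.0393), with Cldn5 of brain vessels (r = 0.32, rho = 0.39, adjusted permutation p = 0.0484) and, below 0, with the muscle actin Acta1 (r = -0.35, rho = -0.30, adjusted permutation p = 0.0421). Acta1 passed above 0 with Hbb-bh1 (r = 0.40, adjusted permutation p = 0.0126) and Epor (r = 0.32, adjusted permutation p = 0.0468). Cldn5 passed with Hba-x (r = 0.34, rho = 0.18, adjusted permutation p = 0.0421), where r was 0.14 without the 2 farthest arrays. The liver gene Alb passed with Slc4a1 (r = 0.34, adjusted permutation p = 0.00641). Alb was under the dim level at 5.39, and with the lower quartile regressed out this r was 0.21 (adjusted permutation p = 0.475). Of Pf4, a platelet gene, r was -0.34 with Hbb-bh1 and -0.32 with Slc4a1. By Spearman's rho, Acta1 with Alas2 and with Epor, Cldn5 with Hba-x and Pf4 with Slc4a1 did not pass (adjusted permutation p of 0.059 or more). Alb passed by rho also with Hbb-y, Hba-x and Epor (rho of 0.35 to 0.39), and Col1a1 with Slc4a1 (rho = 0.48).

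With the lower quartile regressed out of both sides, 0 of 66 marker relations passed by Pearson's r and 4 by Spearman's rho. The size of r for Alas2 stayed as it was, at 0.33 with Col1a1, 0.33 with Cldn5 and -0.35 with Acta1 (adjusted permutation p of 0.0959, 0.14 and 0.0959). By rho the 4 were Alas2 with Col1a1 and with Cldn5, Slc4a1 with Col1a1 and Epor with the choroid plexus gene Ttr.

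Other genes of the red cell programme were read from fixed lists, as r over the 60 arrays with no test. Of the 7 enzymes that follow Alas2 in heme synthesis 6 were measured, all above the dim level, and their r with Alas2 was -0.03 to 0.21. The ubiquitously used enzyme Fech, which inserts iron into heme, had 0.08. Of 13 genes of iron import and red cell metabolism, the exception was Slc25a37, mitoferrin 1, which brings iron into red cell mitochondria: its r was 0.62 with Alas2 and 0.60 with the mean of the adult globin clusters, and -0.13 with the lower quartile. The transferrin receptor Tfrc had 0.21 with Alas2.

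Among 15 of 18 membrane and skeleton genes measured, r with Alas2 was -0.11 to 0.24, highest for the spectrin gene Sptb. Ermap, Rhd and Epb42 had the highest r with the mean of the standardised embryonic globins, 0.77, 0.62 and 0.61, and r of 0.84, 0.75 and 0.74 with the lower quartile. The regulators Gata1 and Klf1 were under the dim level at 6.26 and 6.00. Their r was -0.05 and -0.01 with Alas2, and 0.78 and 0.80 with the lower quartile. Among 9 genes of organelle and nuclear loss, Isg20 had the highest r with Alas2 (0.32), and Trim58 and Trim10 the highest with the embryonic globins (0.62 and 0.59). Trim58 was just under the dim level and Trim10 under it at 6.02, and their r with the lower quartile was 0.72 and 0.66. Hbb-bh2, a further beta-like globin, was dim at 6.15, with r of 0.72 with the embryonic globins, 0.75 with the lower quartile and -0.20 with Alas2.

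Among lists of other cells and tissues, r with Alas2 was 0.11 to 0.29 in the choroid plexus. It was -0.08 to 0.51 in endothelium and pericytes (highest for the vascular cadherin Cdh5). In the microglia list it was -0.12 to 0.47, highest for Mrc1, with C1qa next at 0.21. It was -0.12 to 0.38 for leukocytes and -0.07 to 0.10 for platelets. For fetal liver and yolk sac it was -0.09 to 0.24, and for oxygen response genes -0.47 to 0.14. In hindbrain and spinal cord it was 0.03 to 0.28, and in bone and cartilage -0.11 to 0.35. The range was -0.24 to 0.04 in the pituitary and -0.35 to 0.04 in muscle. Neurons and progenitors had -0.24 to 0.35.

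Across all 19938 genes, those most like the embryonic globins were Cd300lg (r = 0.85), Nhlrc1, Ssu2, Creb3l3, Fbxo40, Prlh, Nlrc5, Ifna5, Muc6 and Otop2 (0.80 or more). None is an erythroid list gene, their r with the lower quartile was 0.75 to 0.90, and that with the adult globin mean -0.06 to 0.09. In all, 18.4% of genes, these members counted, had an r over 0.5 with the embryonic mean. For the mean of Alas2 and Slc4a1 the first was Tent5c, a poly(A) polymerase (r = 0.69), and then Spag11a, G6pc, Prss46, Ppard, Itpripl2, Col3a1, Aspdh, Mael and Zfp395 (0.56 to 0.59). Of genes, both members counted, 0.431% exceeded 0.5 there.

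Alas2 taken alone, an alternative chosen after the values were seen, was most like Tent5c (r = 0.64), Apc2, Slc25a37 (0.62), Dcn, Ttyh3, Ambra1, Igf2, Slc38a2, Zfp618 and Stab1 (0.55 or more). Only 28 genes (0.14%), Alas2 counted, exceeded 0.5 with it. With the adult globin mean 4 genes did so, the members counted, led by Alas2 itself (0.90) and then Slc25a37 (0.60), Tent5c (0.56) and Dcn (0.53).

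The design asks whether CPO given to the dam changes fetal brain expression, and whether PON1 genotype changes that response. No member passed. Over 8 comparisons of a dose with dose 0 within a genotype, and averages over genotypes at 0.75 and at 0.85 mg/kg/d, 0 of 60 member tests had an adjusted p under 0.05 in limma, whose share over all 21789 transcript clusters was 0% in each. The members' log2 differences ran between -0.23 and 0.18, with adjusted p of 0.456 or more. At an unadjusted p under 0.05 stood 3 of the 60 member tests. The share of all transcript clusters at that level was 1.84% and 2.9% in KO dams at 0.50 and 0.75 mg/kg/d, 2.35% and 3.86% in Q-tg dams, 5.31% and 4.86% in R-tg dams and 10.2% and 2.15% in WT dams at their lower and higher dose. In the averages it was 4.08% at 0.75 and 1.67% at 0.85 mg/kg/d. Across the 12 groups the moderated F test gave adjusted p of 0.95 to 0.995 for the 6 genes (background 0%, and 4.84% at an unadjusted p under 0.05).

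**Figure D4:**
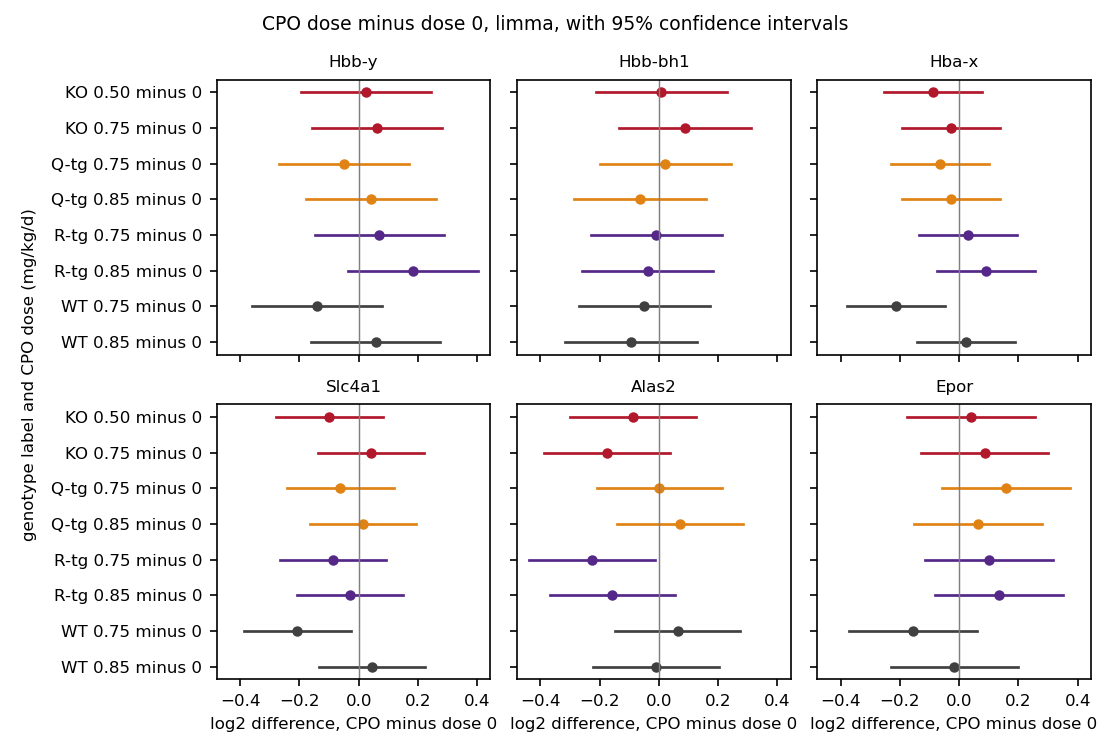
Log2 difference of each CPO dose minus dose 0 of the same genotype label (points) with 95% confidence intervals of limma (lines), by gene. The intervals of Hba-x and Slc4a1 at WT 0.75 mg/kg/d and of Alas2 at R-tg 0.75 mg/kg/d leave out 0 before adjustment, and none passes after adjustment over all transcript clusters.

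The largest differences of Hba-x and Slc4a1 were both in WT dams at 0.75 mg/kg/d. Hba-x was 6.60, 6.9965, 6.70, 6.65 and 6.96 at that dose, against 6.99, 7.10, 7.02, 6.94 and 6.93 in WT dams at dose 0. The groups overlap, with 3 of the 5 dosed arrays under every undosed one. The difference was -0.21 ± 0.08 (SE; limma, adjusted p = 0.456). Slc4a1 was 7.0045, 7.29, 7.03, 7.04 and 7.19, against 7.41, 7.36, 7.26, 7.07 and 7.51 at dose 0, and 3 dosed arrays were again under all undosed ones. Its difference was -0.21 ± 0.09 (limma, adjusted p = 0.461).

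Of all transcript clusters, 10.2% had an unadjusted p under 0.05 in that comparison. The lower quartile of the arrays was 6.28 in the dosed WT group and 6.36 at dose 0, and with the lower quartile as a covariate the difference was -0.12 for Hba-x and -0.09 for Slc4a1, and neither kept an unadjusted p under 0.05. The adult clusters differed by -0.0039 to 0.00089 there, and Alas2 by 0.06 (adjusted p = 0.833 in limma). Hbb-y at 6.11 and Epor at 6.71 also had their lowest group means in WT dams at 0.75 mg/kg/d. The covariate also brought other CPO differences at 0.75 mg/kg/d under an unadjusted p of 0.05 in limma. They were Epor in Q-tg dams (0.19) and in the average over genotypes (0.08), and Slc4a1 in R-tg dams (-0.12). Their adjusted p in that limma fit was 0.628 or more.

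Alas2 had its largest difference in R-tg dams. At 0.75 mg/kg/d it was 7.99, 7.72, 7.78, 8.05 and 7.76, against 8.03, 8.30, 8.19, 7.82 and 8.09 at dose 0. The highest dosed arrays lay within the undosed range, and those at 7.72, 7.78 and 7.76 were under every undosed one. The difference was -0.23 ± 0.11 (limma, adjusted p = 0.899), in a comparison where 5.31% of transcript clusters had an unadjusted p under 0.05. Adult alpha clusters differed by -0.15 each and adult beta clusters by -0.12 and -0.11 (adjusted p of 0.874 to 0.877 in the fit of all transcript clusters). At 0.85 mg/kg/d the Alas2 difference was -0.16 ± 0.11.

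In KO dams at 0.75 mg/kg/d Alas2 was 7.96, 7.67, 7.54, 7.63 and 7.84, against 7.73, 8.05, 7.97, 8.21 and 7.56 at dose 0, and the ranges overlap. The difference was -0.18 ± 0.11 (limma, adjusted p = 0.999). Adult alpha clusters differed by -0.14 and -0.13 and adult beta clusters by -0.05 each. That KO group had the lowest mean of Alas2, 7.73, and of each adult cluster, and R-tg at dose 0 the highest, 8.09 for Alas2. The other 10 group means of Alas2 lay between 7.82 and 7.98, less apart than the spread within a group. In WT dams the differences of Alas2 were 0.06 at 0.75 and -0.01 at 0.85 mg/kg/d, and in Q-tg dams 0.0017 and 0.07.

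**Figure D5:**
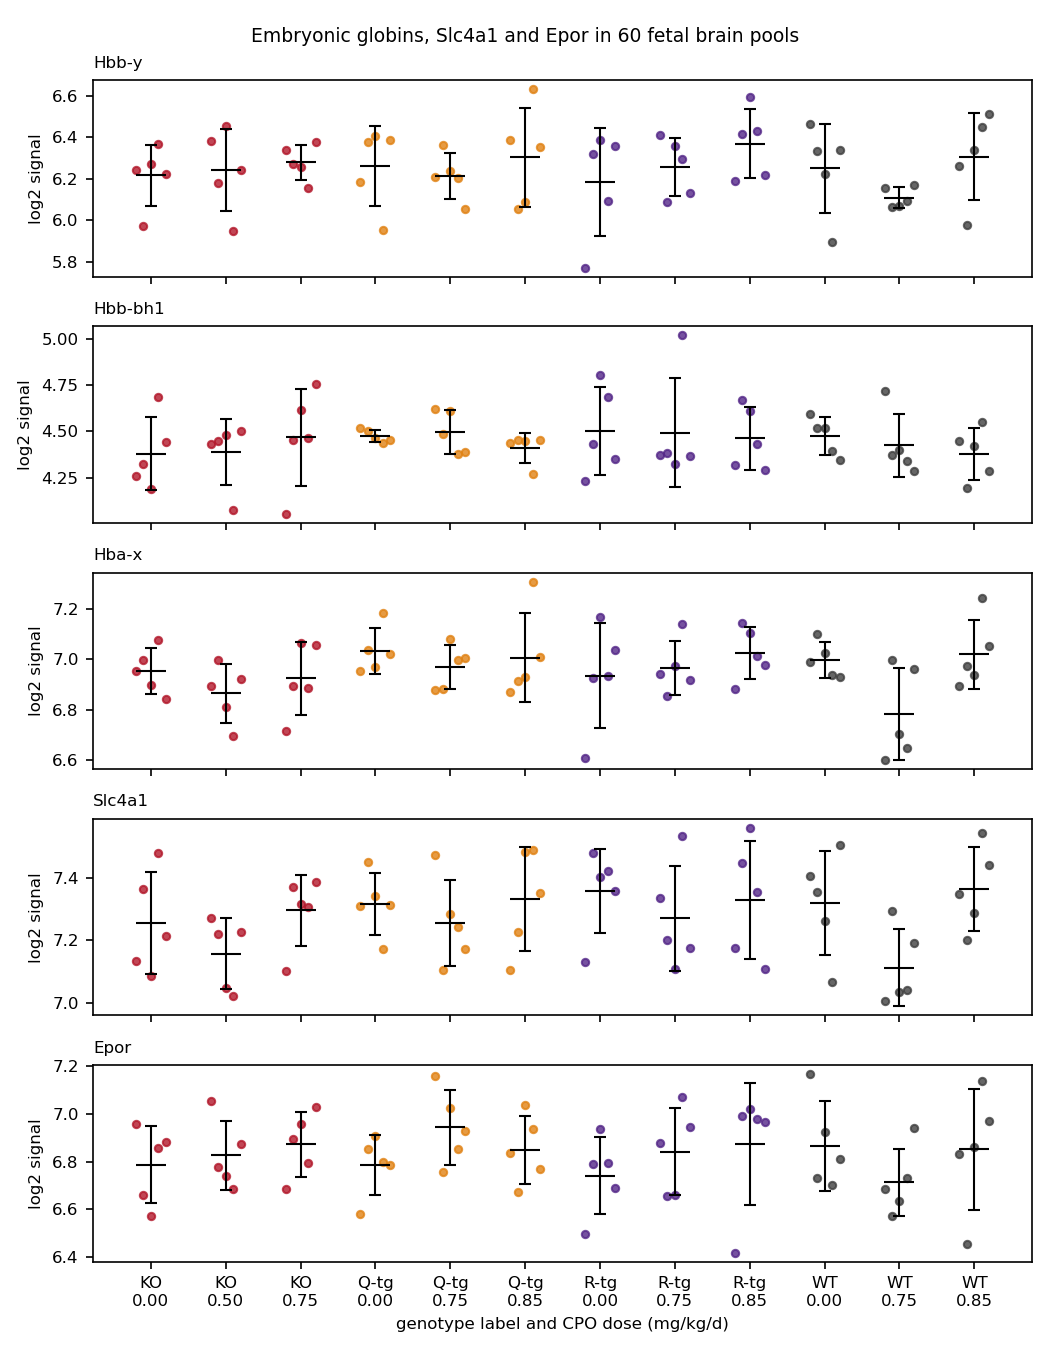
Log2 signal of Hbb-y, Hbb-bh1, Hba-x, Slc4a1 and Epor on each array (points), by genotype label and CPO dose, with group mean and SD (bars, n = 5). WT at 0.75 mg/kg/d is the lowest group for Hbb-y, Hba-x, Slc4a1 and Epor.

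Averaged over the 4 genotypes at 0.75 mg/kg/d, the difference was -0.08 ± 0.05 for Alas2, -0.08 ± 0.04 for Slc4a1 and -0.07 ± 0.04 for Hba-x (limma, adjusted p = 0.966 each; 4.08% of transcript clusters had an unadjusted p under 0.05). It was 0.05 ± 0.05 for Epor. All 10 erythroid regulators, of which 6 were above the dim level, lay below 0 in this average, with a median of -0.02, and 0 passed. The 6 included Bcl11a at 11.27, Lmo2 at 8.95 and Sox6 at 8.80, whereas Gata1, Klf1, Nfe2 and Hemgn were under the dim level. Which cells of the brain pools carried the regulators' signal was not tested. The median of all transcript clusters was -0.0095, and 61.6% of them lay below 0. The regulators' r with the lower quartile was -0.40 to 0.80. The lower quartile of the arrays was lower by 0.0185 in the same average. With the lower quartile as a covariate, the difference was -0.08 for Alas2, -0.05 for Slc4a1, -0.05 for Hba-x and 0.08 for Epor. Adjusted p of these 4 genes in that limma fit was 0.842 to 0.855. The part of the lower quartile in the count of regulators was not tested. At 0.85 mg/kg/d, 8 of the 10 regulators lay above 0, in an average where 44.2% of all transcript clusters lay below 0. Of 6 heme enzymes 4 lay below 0 at the lower of these doses and 3 at the higher, and of 15 membrane genes 11 and 9.

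At dose 0, 0 of 24 member tests between genotypes passed (background 0% in each of 4 comparisons). Alas2 averaged 8.09 ± 0.18 in R-tg dams and 7.86 ± 0.07 in Q-tg dams (SD, n = 5 each; limma difference 0.23, adjusted p = 0.861), and this was the only one of the 24 with an unadjusted p under 0.05. The share of all transcript clusters at that level was 5.43% there, and 3.25%, 1.66% and 3.93% for KO, Q-tg and R-tg minus WT. Against WT dams its difference was -0.01 in KO, -0.06 in Q-tg and 0.17 in R-tg dams. Epor, the receptor, differed from WT by -0.08 in KO, -0.08 in Q-tg and -0.13 in R-tg dams.

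The difference in response between genotypes was tested directly in 7 contrasts, and 0 of 42 member tests passed. The background was 0% in 6 of them, and 1 transcript cluster passed for R-tg minus WT at 0.75 mg/kg/d, a share of 0.00459%, and 0 in 7 of the other settings tried. In that contrast Hba-x had 0.24 ± 0.12 (limma, adjusted p = 0.371) and Alas2 -0.29 ± 0.15 (limma, adjusted p = 0.394), with 13% of transcript clusters at an unadjusted p under 0.05. For Q-tg minus WT at 0.75 mg/kg/d, Epor had 0.31 ± 0.15 (limma, adjusted p = 1). At an unadjusted p under 0.05 stood 2 of the 42 member tests. Of all transcript clusters it was 7.59% for KO minus WT, 2.23% for Q-tg minus WT and 5.81% for R-tg minus Q-tg at 0.75 mg/kg/d, and 1.87%, 4.76% and 8.2% for Q-tg minus WT, R-tg minus WT and R-tg minus Q-tg at the top dose. The contrasts against WT at 0.75 mg/kg/d share the WT arrays at 0.75 mg/kg/d and at dose 0.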

How the data were processed

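Total RNA of pooled fetal brains from 60 dams was hybridised to 60 arrays. Per the submitters' processing notes, the authors made the deposited log2 values by RMA with the oligo package in R 2.15.1 (oligo 1.22.0 per the deposited session listing). RMA subtracts background, quantile-normalises and summarises probes, so levels near background are compressed. Of 28858 transcript clusters, 21789 with 1 gene symbol were tested, 1621 had several and 5448 none. The 4 adult globin clusters come from a fit of all transcript clusters. Groups follow the labels.

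limma 3.58.1 in R 4.3.3 fitted 12 group means (5 arrays each, 48 residual degrees of freedom), with 21 contrasts, moderated tests and Benjamini-Hochberg adjustment over the 21789. Correlations used 2-sided permutation tests (100000 resamples, numpy 2.4.6), adjusted within a family. Both were tested on simulated data. The design named 21 pairs of 7 genes, of which 15 pairs of 6 genes were computed. All members are named, with the 10 genes most like the embryonic globins, and the mean of Alas2 and Slc4a1, predicted genes left out. Members and lists were chosen with earlier results of these data known. The residuals on array measures, the adult clusters and the likeness to Alas2 alone were added after the data were seen. No scan date is given in the sources used here. The number of arrays limits the precision.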

Additional observations from a re-analysis of the deposited data

Results flagged for a closer look

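In groups of 5 arrays, 1 array stood far from the other 4 by Dixon's test at 95% in 6 of 72 combinations of member and group, where chance flags about 5%. Hbb-bh1 accounts for 4 of them, all under the dim level. It was 4.07 in KO at 0.50 mg/kg/d (replicate 4), against 4.43 to 4.50 on the other arrays, and 4.27 in Q-tg at 0.85 mg/kg/d (replicate 4), against 4.43 to 4.45. It was 5.02 in R-tg at 0.75 mg/kg/d (replicate 4), against 4.32 to 4.38, and 4.72 in WT at 0.75 mg/kg/d (replicate 1), against 4.29 to 4.40. Slc4a1 was 7.10 in KO at 0.75 mg/kg/d (replicate 1), against 7.31 to 7.39. Epor was 6.42 in R-tg at 0.85 mg/kg/d (replicate 1), against 6.97 to 7.02. Among the adult globins, the first beta cluster was 12.96 in WT at dose 0 (replicate 5), against 12.60 to 12.70, and the second was 12.66 in KO at 0.50 mg/kg/d (replicate 2), against 12.50 to 12.54. Alas2, Hba-x, Hbb-y and the adult alpha clusters had no such array.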

How the results depend on the processing

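The counts of 0 members past the threshold, for the CPO response, the genotype difference at dose 0, the difference in response and the spread over groups, were 0 under every alternative run, including array weights, other normalisations, a dim filter, only the groups of the contrast, no arrays with Pon1 against the label, and leaving out each array in turn (0 to 0). With the replicate number as a replicate block the count was 0 in each, and same-numbered arrays did not deviate together (mean correlation -0.0094 over 330 pairs, against 0.0026 for other numbers). Over all transcript clusters, array weights called 39 in place of 0 for WT at 0.75 mg/kg/d minus dose 0 and 118 in place of 0 for the response at 0.85 mg/kg/d, R-tg minus Q-tg. In that last contrast the fit of all transcript clusters called 9, the lower quartile covariate 2 and leaving out arrays with Pon1 against the label 1. Leaving out arrays with Pon1 against the label called 29 for KO minus WT at dose 0. For the response at 0.75 mg/kg/d, R-tg minus WT, array weights and quantile normalisation called 2 each in place of 1, the dim filter called 1, and the other 7 settings, the replicate block among them, called 0, as did some of the fits that leave out 1 array. Without R-tg at 0.85 mg/kg/d replicate 5, 25 were called for the response at 0.85 mg/kg/d, R-tg minus Q-tg. Other counts above 0 were 1.

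The 9 pairs of members past the threshold became 1 in residuals on the lower quartile and 2 in residuals on the olfactory receptor mean, and were 9 to 11 otherwise. Of relations to markers and array measures 20 of 78 passed, 14 with markers and 6 with array measures. Relations with array measures have no counterpart in residuals on the lower quartile, where 0 of the 66 with markers passed by Pearson's r and 4 by Spearman's rho, though r of Alas2 with 3 markers kept its size. In those residuals r changed sign to -0.0547 for Hbb-y with Hbb-bh1, -0.0592 for Hbb-bh1 with Hba-x and -0.0399 for Hba-x with Epor, and in residuals on the olfactory mean to -0.0009 for the first pair. On deviations from group means r was 0.0217 for Alas2 with Epor and 0.0033 for Alas2 with the lower quartile, which was 0.0215 without the 2 farthest arrays. In the 39 arrays with low signal of the pituitary hormone gene Gh, r with Gh changed without the 2 farthest. It was then 0.4664 for Hbb-y, 0.4419 for Epor and 0.3167 for Hbb-bh1, each below 0 with all 39 arrays. For Hba-x it was 0.5008 in place of 0.0957, for Slc4a1 0.4237 in place of 0.0472 and for Alas2 -0.0256 in place of 0.1184. With median-centred arrays r of Slc4a1 with Gh was -0.0313. The cause was not tested. The alternative of another row per gene could not be run, since each member has 1 row.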
